A study of Mus musculus with 4 samples.

Results

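Glutamate, GABA and glycine receptors were followed in RNA from sorted cells of the mouse retina. The set was taken by gene name from the deposited count table. It holds the protein-coding genes of the ionotropic glutamate receptors (Gria, Grik, Grid, Grin), the metabotropic glutamate receptors (Grm, leaving out Grm6), the GABA-A, GABA-rho and GABA-B receptors (Gabr, Gabbr) and the glycine receptors (Glr). It has 52 genes among 56493 rows, of which 21620 are protein-coding. The name pattern also takes Grid2ip, which encodes a scaffold protein that binds the delta receptor and is not itself a receptor. Of the 52 genes, 47 had 10 or more counts in 2 or more libraries and were compared between the groups, among 19791 genes of all kinds that passed the same filter.

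All 4 libraries came from wild-type mice that had received an AAV2 vector in the vitreous and, a month later, an optic nerve crush. Cells labelled as retinal ganglion cells (RGC) were then purified by fluorescence-activated sorting. The vector was AAV2-CrAT, meant to overexpress the enzyme carnitine acetyltransferase, in 2 libraries and AAV2-MCS, which the labels do not spell out, in the other 2. All 4 sample titles also carry the tag NCd8, which the titles do not spell out. The labels give neither the promoter of the vector nor the number of animals pooled in a sample, and nothing in them ties the replicates to separate animals. P-values therefore reflect the spread of these samples alone, which may be technical. The groups differ by the CrAT vector, and no uninjured eye was analysed here.

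Retinal neurons signal to each other with glutamate, GABA and glycine. Photoreceptors, bipolar cells and ganglion cells release glutamate, which opens cation channels of the AMPA, kainate and NMDA classes or acts on G-protein-coupled metabotropic receptors. Amacrine and horizontal cells are inhibitory, and their GABA and glycine open chloride channels that are assembled from the GABA-A, GABA-rho and glycine receptor subunits, while GABA-B receptors signal through G proteins. OFF bipolar cells read photoreceptor glutamate largely through kainate and AMPA receptors, bipolar terminals carry GABA-rho receptors, and NMDA receptors are best known from ganglion and amacrine cells.

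The libraries held 24494253 to 27097438 counts, and 3 counts corresponded to 0.111 to 0.122 CPM (counts per 1000000 counted). CPM values of genes were further scaled between libraries by the trimmed mean of M-values, and pairs of values are replicates 1 and 2 in that order. Crat itself was at 73 and 49.8 CPM with the CrAT vector and 38.3 and 47.5 CPM with MCS, a log2 fold change of 0.52 (SE 0.33, edgeR adjusted p = 1), so the gene carried by the vector did not pass the test. Whether transcripts of the vector's own CrAT sequence would be counted in that row is not given in the labels. Markers of other retinal cells were abundant beside those of ganglion cells. Summed over 10 genes, ganglion cell markers reached 58.2 to 191.6 CPM per library, and Pou4f2, a ganglion cell transcription factor, was at 0 counts in all but MCS replicate 2. Rod markers summed to 25760 to 48420 CPM, Mueller glia markers to 10820 to 19230 CPM, bipolar markers to 963.7 to 1581 CPM and amacrine markers to 696.6 to 2200 CPM, while 3 T cell markers had no count. In such mixtures fewer cells of a type and less RNA per cell cannot be told apart.

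By level, the set was led by the GABA-rho subunits. Levels between genes are given as the deposited FPKM, fragments scaled by summed exon length and by library total, averaged over the 4 libraries. The 3 GABA-rho genes made up 52.7% of the summed FPKM of all 52 genes, the 16 GABA-A genes 19.1%, kainate 8.35%, glycine 8.32%, AMPA 4.62%, GABA-B 2.33%, NMDA 2.24% and metabotropic glutamate 2%. The exon length of a gene counts all its annotated exons, 24842 bases for Grin2b against 2105 for Gabrr2, so genes with many unused exons or long untranslated ends read low on this scale.

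**Figure D1:**
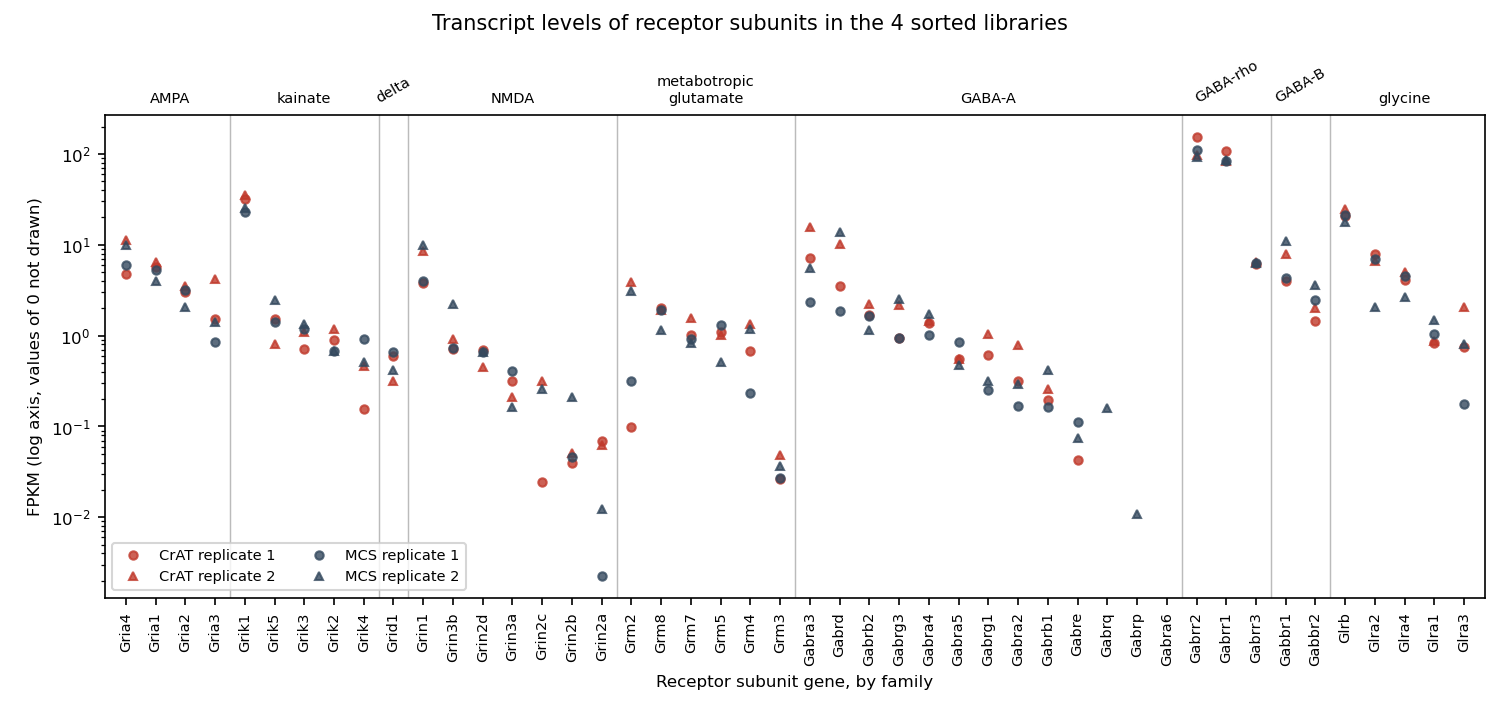
Deposited FPKM (log axis) of 46 receptor subunit genes, by family and then by mean level, with 1 point for each library (colour for the group, shape for the replicate number). Gabrr2 and Gabrr1 lie highest at 82.6 to 153 FPKM, Gabra6 has no point because it had no count, and the points of Grm2, Gabrd and Grin2c are spread by replicate number.

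Gabrr2 (ENSMUSG00000023267) and Gabrr1 (ENSMUSG00000028280), which encode subunits of the slowly desensitising GABA receptor of bipolar cell terminals, had the highest levels of the set. Gabrr2 was 153 and 96.2 FPKM in CrAT replicates 1 and 2, and 111 and 91.4 FPKM in the MCS replicates. Gabrr1 was 108 and 82.6 FPKM in CrAT and 83.2 and 84.7 FPKM in MCS. Gabrr2 was the higher of the pair in each library, although their ranges over the libraries overlap. The genes are neighbours on chromosome 4, both on the plus strand, within 101 kb in the coordinates of the deposited table. The table names no build, and its coordinates are not those of GRCm38.p6 at several genes, Gabrg1 among them. Their upstream sequences are shown because this pair carries most of the GABA-rho signal. Each is the 250 bases before the first listed start in RefSeq (GRCm38.p6), 5′ to 3′ on the gene's strand, at chr4:33062862-33063111 and chr4:33132306-33132555, and capitals mark matches to the short motifs described further on.
Gabrr2: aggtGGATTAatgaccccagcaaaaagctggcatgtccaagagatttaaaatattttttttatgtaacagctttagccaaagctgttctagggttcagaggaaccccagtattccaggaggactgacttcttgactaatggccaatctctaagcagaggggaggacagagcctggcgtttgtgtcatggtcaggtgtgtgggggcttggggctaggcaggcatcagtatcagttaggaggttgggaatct
Gabrr1: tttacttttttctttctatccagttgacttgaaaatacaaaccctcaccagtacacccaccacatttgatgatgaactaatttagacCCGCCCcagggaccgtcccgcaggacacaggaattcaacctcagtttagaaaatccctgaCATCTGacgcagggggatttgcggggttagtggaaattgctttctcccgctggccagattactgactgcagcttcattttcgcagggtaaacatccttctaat
The pair shares no motif match, with a TAATCC core on the opposite strand in Gabrr2, a GC box and an E-box in Gabrr1, 1 CpG in the window of Gabrr2 and 7 in that of Gabrr1. The third GABA-rho gene, Gabrr3 on chromosome 16, was far lower and the most even of the 3, at 6.2, 6.45, 6.33 and 6.33 FPKM in CrAT replicates 1 and 2 and MCS replicates 1 and 2.

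Among the GABA-A subunits the alpha subunit Gabra3 had a mean of 7.68 FPKM and Gabrd, the delta subunit of receptors outside synapses, 7.39, and both varied strongly between libraries. Gabrb2, Gabrg3 and Gabra4 had means of 1.39 to 1.67, and Gabra5, Gabrg1, Gabra2 and Gabrb1 of 0.259 to 0.606. Gabre had 0 to 13 counts in a library. Gabrq had 23 counts in MCS replicate 2 and none elsewhere, Gabrp had 1 count in all, and Gabra6, known from cerebellar granule cells, had 0 counts in each library, which allows up to 0.111 to 0.122 CPM.

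Many GABA-A genes sit in clusters that hold subunits of several classes, and neighbours could differ widely in level. On the X chromosome Gabra3 stood at 7.68 FPKM between Gabre at 0.0572 and Gabrq at 0.0397. The 4 genes of the cluster on chromosome 5 (Gabrg1, Gabra2, Gabra4 and Gabrb1) were all low, at 0.259 to 1.39 FPKM. These means are a description, with no test between neighbours.

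The ionotropic glutamate receptors were led by Grik1, the kainate subunit GluK1, which OFF bipolar cells use. It was 32.3 and 35.5 FPKM in CrAT and 23 and 25.6 FPKM in MCS, and the other 4 kainate genes had means of 0.512 to 1.56. Of the AMPA subunits Gria4 had a mean of 7.98 FPKM, Gria1 5.38, Gria2 2.93 and Gria3 2.01. The obligatory NMDA subunit Grin1 had a mean of 6.58 FPKM. Its partners were much lower, with Grin3b at 1.15, Grin2d at 0.615, Grin3a at 0.275, Grin2c at 0.15, Grin2b at 0.0863 and Grin2a at 0.0366 FPKM. Reads without strand cannot be told apart from those of overlapping genes on the opposite strand. Grin1 shares 13.5% of its exon bases with the antisense transcript Grin1os, which had 327 to 1108 counts. Grin3b shares 32.1% with Tmem259, which had 177 to 1093 counts, more than the 59 to 200 of Grin3b. Grin2d shares 9.7% with the antisense transcript Gm45441, which had 89 to 159 counts beside 81 to 120 of Grin2d. The delta subunit Grid1, of a class that binds cerebellins and forms synaptic contacts, had a mean of 0.496 FPKM.

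The remaining classes had 1 leading gene each or were low throughout. Glrb, the beta subunit that anchors glycine receptors at synapses, was 20.5 and 24.5 FPKM in CrAT and 21 and 17.9 FPKM in MCS. The alpha subunits followed with Glra2 at a mean of 5.91, Glra4 at 4.04, Glra1 at 1.06 and Glra3 at 0.955 FPKM. Of the GABA-B receptor, a dimer of 2 subunits, Gabbr1 had a mean of 6.82 and Gabbr2 of 2.4 FPKM. The metabotropic receptors Grm2, Grm8, Grm7, Grm5 and Grm4 had means of 0.859 to 1.86 FPKM, and Grm3 had 2 to 4 counts in a library. Grid2ip had 1 to 4 counts.

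Many of these genes differed between the libraries of a group, in a direction that went with the replicate number, whose meaning the labels do not give. In 24 of 47 genes replicate 2 was higher than replicate 1 in both groups, which is 51.1% against 32.1% of all genes tested. In 10 it was lower in both, which is 21.3% against 33.2%. The median log2 ratio of replicate 2 over replicate 1 was 0.26 in CrAT and 0.17 in MCS, against -0.01 in CrAT for all genes tested. The median size of such a ratio, whatever its sign, was 0.67 (0.47 for all genes). The median size of the log2 fold change between the group means was 0.43 (0.31 for all genes). These 2 sizes are unlike measures, since the first is between single libraries and the second between means of 2, which vary less. Across the 47 genes the ratios of the 2 groups had a Pearson r of 0.71 and a Spearman rho of 0.63, and across all genes tested 0.38 and 0.41. Genes are not independent replicates, so no p is given, and each ratio rests on 2 libraries. These ratios are on a log2 CPM scale with a prior count of 2.

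**Figure D2:**
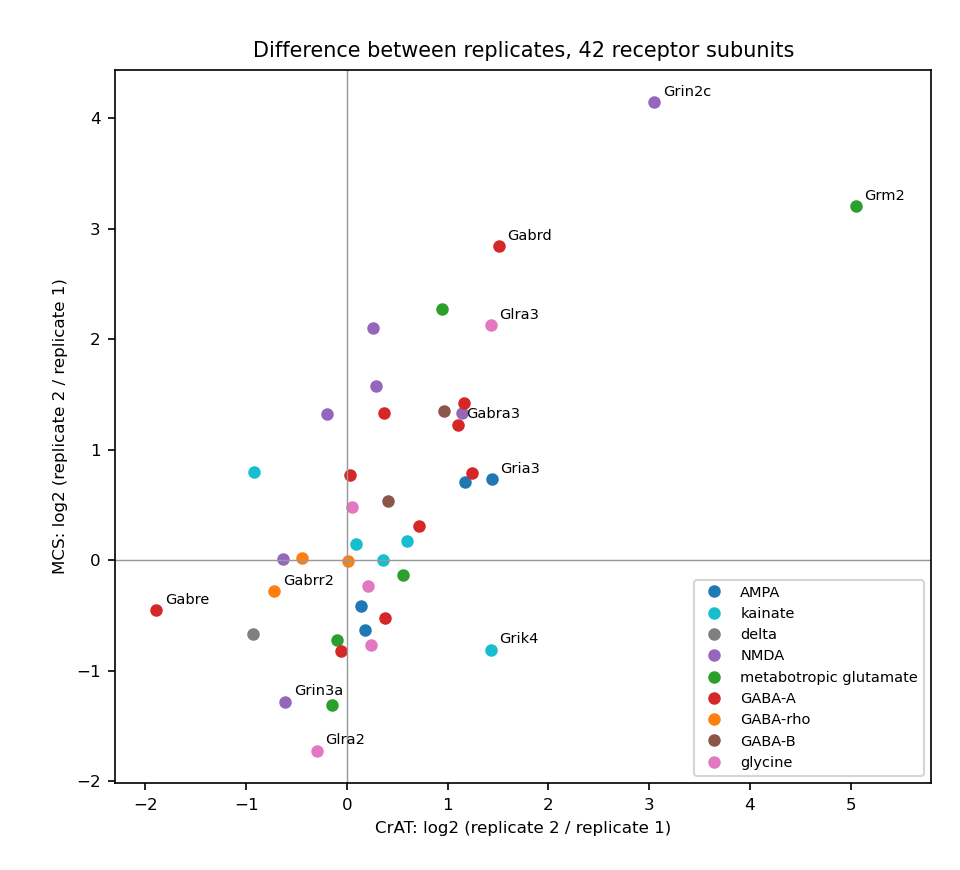
Log2 ratio of replicate 2 over replicate 1 in CrAT (horizontal axis) and in MCS (vertical axis) for 42 of the genes tested, coloured by family, on a log2 CPM scale with a prior count of 2. Grm2, Grin2c, Gabrd and Glra3 lie in the upper right, above 1 on both axes, and Glra2, Gabre and Grin3a in the lower left. Grin2c passed the count filter only through the libraries numbered 2.

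Grm2, a presynaptic metabotropic receptor that is a classical marker of starburst amacrine cells, differed most between replicates. It had 12 and 514 counts in CrAT replicates 1 and 2, or 0.506 and 19.3 CPM, and 38 and 408 counts in MCS replicates 1 and 2, or 1.53 and 14.7 CPM. Grin2c, an NMDA subunit, had 3 and 43 counts in CrAT and 0 and 36 in MCS. In both genes nearly all counts came from the libraries numbered 2, and the groups overlapped. Gabrd was 10.5 and 29.9 CPM with CrAT against 5.34 and 38.9 CPM with MCS. These genes, with Glra3, Gabrg3, Grin1 and Gabra3, were among the 8 that were more than 2-fold higher in replicate 2 in both groups, 17% of the set against 4.32% of all genes tested. Of the 8, Grin2c passed the count filter only through the libraries numbered 2, so its ratio is a description and supports nothing. Gabrg3 is named here after its values were seen.

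No gene of the set was lower by more than 2-fold in replicate 2 of both groups, which was uncommon over all genes too, with 595 of 19791. Among the lowest ratios were those of Gabre, with at most 13 counts, Glra2 and Grin3a. Glra2 was 26.1 and 21.1 CPM with CrAT against 21.4 and 6.43 CPM with MCS, lower in replicate 2 in both groups. The GABA-rho genes also did not share the pattern of Grm2, with summed levels of 620.4 and 420.8 CPM with CrAT against 443 and 404.3 CPM with MCS. Marker lists moved between the same libraries. Amacrine markers were 2.67-fold and 1.92-fold higher in replicate 2 of CrAT and MCS, and ganglion cell markers 2.31-fold and 2.36-fold. The sum of 4 horizontal cell markers was 3.08-fold and 4.75-fold higher there. It was nearly all Calb1, at 25.6 and 79.6 CPM with CrAT against 8.43 and 42.8 CPM with MCS. Only 2 of the 4 were higher in replicate 2 of both groups, and Onecut2 was lower in both. Rod markers stood at 0.532 and 0.602 of their replicate 1 level and bipolar markers at 0.61 and 0.877. Of the 10 ganglion cell markers 7 were higher in replicate 2 of both groups. Nefh was lower in both, at 16.8 and 15.1 CPM with CrAT against 12.6 and 8.52 CPM with MCS. Rbpms was higher in replicate 2 of MCS only, and Pou4f2 had no count in CrAT. Of the 9 amacrine markers 7 were higher in replicate 2 of both groups. Gad1, which makes GABA and had the highest level in CrAT replicate 2 after Slc6a9, was 75.8 and 689 CPM with CrAT against 33.8 and 260 CPM with MCS. Pax6 was higher in replicate 2 of CrAT only, at 251 and 446 CPM against 312 and 270 CPM in MCS, and Chat, the defining gene of starburst cells, had 13 counts in CrAT replicate 1 and 0 in the other 3 libraries. The part of these marker differences in the receptor values was not tested.

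The upstream sequences of Grm2 and Grin2c are shown because these genes parted most between replicates. They lie at chr9:106656110-106656359 and chr11:115267244-115267493 (RefSeq, GRCm38.p6, minus strand), again as the 250 bases before the first listed start.
Grm2: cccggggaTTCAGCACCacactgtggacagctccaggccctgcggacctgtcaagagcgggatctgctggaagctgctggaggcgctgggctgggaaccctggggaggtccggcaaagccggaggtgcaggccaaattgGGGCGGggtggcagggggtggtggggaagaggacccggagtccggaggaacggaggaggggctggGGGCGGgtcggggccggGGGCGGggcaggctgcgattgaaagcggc
Grin2c: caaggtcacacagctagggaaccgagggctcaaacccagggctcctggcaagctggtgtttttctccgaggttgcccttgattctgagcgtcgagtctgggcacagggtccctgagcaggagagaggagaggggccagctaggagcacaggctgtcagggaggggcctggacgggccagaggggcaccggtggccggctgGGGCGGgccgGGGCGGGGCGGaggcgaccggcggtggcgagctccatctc
Both windows are rich in G and C, 71.2% and 68.8%, and each holds 3 GC boxes (GGGCGG or CCGCCC on the other strand), which overlap by a base in a pair of those in Grin2c. Of the 36 set members with a RefSeq window, 21 hold a GC box, which is 58.3% against 32.9% of 27025 windows of all genes. The median GC content was 61.6% for the set and 52% for all. The CRX and OTX core TAATCC, a motif of photoreceptor and bipolar factors, was found in 2 of the 36 (5.56%, against 6.38% of all), among them Gabrr2. The E-boxes CAGATG and CAGCTG were found in 8.33% and 5.56%, against 14.5% and 12.8%, and the TATA box TATAAA in 11.1% against 13%. The window of Grm2 also holds TTCAGCACC, the left arm of the element bound by the neuronal repressor REST, which 0.285% of all windows hold. That motif was searched after the sequence of Grm2 had been seen. All motifs were read on both strands, and a match is a description of letters, not of a bound site.

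Between the groups, no receptor gene passed the test. Of the 47 genes 0 passed an adjusted p of 0.05 in edgeR's quasi-likelihood test, as did 0% of all genes tested. In DESeq2 0 of the 47 passed, against 0.273% of all genes. By unadjusted p under 0.05 in edgeR, 5 were higher in CrAT, 10.6% of the set against 1.34% of all genes, and 0 were lower, against 2.79% of all. DESeq2 gave 6 higher, where 1.48% of all genes were, and 0 lower, where 3.12% were. The CrAT libraries were both higher than either MCS library in 16 genes, 34% against 15.4% of all genes, and below them in 6, 12.8% against 16.3%. The median log2 fold change, CrAT over MCS, was 0.27 for the set with 29 genes above 0 and 18 below, and 0.01 for all genes. The genes of the set share cell types and libraries, so these shares describe the set and carry no test. Without CrAT replicate 2, the library with the highest amacrine markers, the median was 0.16. Among the 5 genes, Gabrg1, Gabra3 and Gria3 then had log2 fold changes of 1.18, 0.95 and 0.50, against 1.59, 1.60 and 1.40 with all libraries. Without MCS replicate 1 they had 1.435, 1.11 and 1.07. Grin2a had 3.28 without CrAT replicate 2, against 3.18. It had passed the filter on low counts only through its CrAT libraries, so that its staying high supports nothing. Mueller glia markers summed to 10820 to 13170 CPM in CrAT and 16010 to 19230 CPM in MCS, without overlap. Much of that sum was Clu, at 7330 and 6260 CPM with CrAT against 9760 and 8920 CPM with MCS. Of the 10 genes, Aqp4, Dkk3 and Slc1a3 overlapped between the groups and the others did not. Astrocyte markers summed to 120.2 to 161.5 CPM in CrAT and 212.8 to 253.8 CPM in MCS. That sum was nearly all Gfap, while S100b overlapped and Pax2 had at most 1 count in a library. Amacrine markers, at 822.7 and 2200 CPM with CrAT against 696.6 and 1340 CPM in MCS, overlapped. The part of these markers in the receptor values was not tested.

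**Figure D3:**
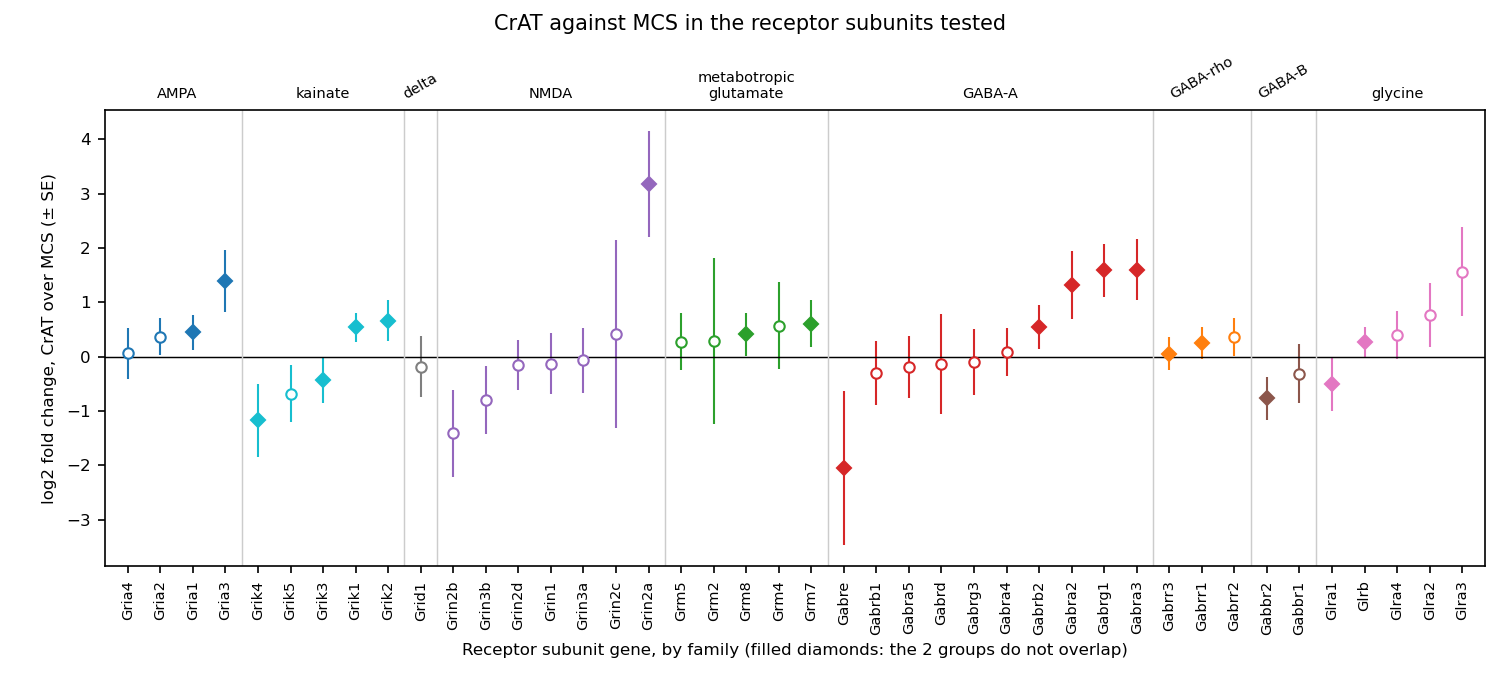
Log2 fold change of CrAT over MCS with its standard error for 42 of the genes tested, by family and then by value. Filled diamonds mark genes whose 2 CrAT libraries lie on one side of both MCS libraries, 14 above and 5 below. Open circles mark genes whose groups overlap. Among all 47 genes tested, drawn or not, 16 lay above and 6 below, or 34% and 12.8% against 15.4% and 16.3% of all genes.

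Among the 5 genes with an unadjusted p under 0.05 were the GABA-A subunits Gabrg1 and Gabra3, the AMPA subunit Gria3 and the NMDA subunit Grin2a. In each of these 4 the groups did not overlap, which is no further support, since they were picked by p from the same libraries. Gabrg1 (chromosome 5, 70908390 to 70999960 in the table), a gamma subunit of restricted distribution, was 5.02 and 8.31 CPM with CrAT against 1.97 and 2.46 CPM with MCS. Its log2 fold change was 1.59 (SE 0.49, edgeR unadjusted p = 0.0162, adjusted p = 1). Gabra3 (chromosome X, 71476287 to 71700454 in the table), an alpha subunit, was 29 and 62.3 CPM with CrAT against 8.95 and 21.1 CPM with MCS, a log2 fold change of 1.60 (SE 0.56) that was 0.95 without CrAT replicate 2. Replicate 2 was higher than replicate 1 in both groups, and the lower CrAT library lay above the higher MCS library. The upstream windows of Gabrg1 and Gabra3, at chr5:70842618-70842867 and chrX:72656920-72657169 (RefSeq, GRCm38.p6, minus strand), are shown because these subunits had the largest log2 fold changes above 0 among GABA-A genes.
Gabrg1: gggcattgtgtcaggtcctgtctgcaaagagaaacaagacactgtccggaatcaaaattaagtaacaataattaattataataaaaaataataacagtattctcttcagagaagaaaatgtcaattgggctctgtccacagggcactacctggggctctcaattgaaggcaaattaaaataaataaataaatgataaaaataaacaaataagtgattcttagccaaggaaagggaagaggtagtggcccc
Gabra3: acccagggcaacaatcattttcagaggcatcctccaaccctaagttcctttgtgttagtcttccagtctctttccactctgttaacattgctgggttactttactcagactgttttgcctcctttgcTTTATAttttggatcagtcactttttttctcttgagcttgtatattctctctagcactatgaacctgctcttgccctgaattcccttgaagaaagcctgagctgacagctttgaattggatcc
In contrast to Grm2 and Grin2c, they hold 35.6% and 42.4% G and C, 1 and 0 CpG and no GC box, and the capitals in Gabra3 mark a TATA box match on the opposite strand.

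Gria3, the AMPA subunit GluA3 on the X chromosome, was 15.5 and 42.1 CPM with CrAT against 8.19 and 13.7 CPM with MCS, a log2 fold change of 1.40 (SE 0.57). Its lower CrAT library lay close to the higher MCS library, and without CrAT replicate 2 the value was 0.50. Grin2a, the NMDA subunit GluN2A, had 31 and 30 counts in CrAT and 1 and 6 in MCS, with a log2 fold change of 3.18 (SE 0.97). Since it entered the comparison only through the group where it was high, its difference is a description. At such counts the size of the difference is poorly fixed, and it ranged from 2.46 to 4.75 when single libraries were left out. Adjusted p-values of these 4 were 1 in edgeR and 0.42 to 0.802 in DESeq2.

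**Figure D4:**
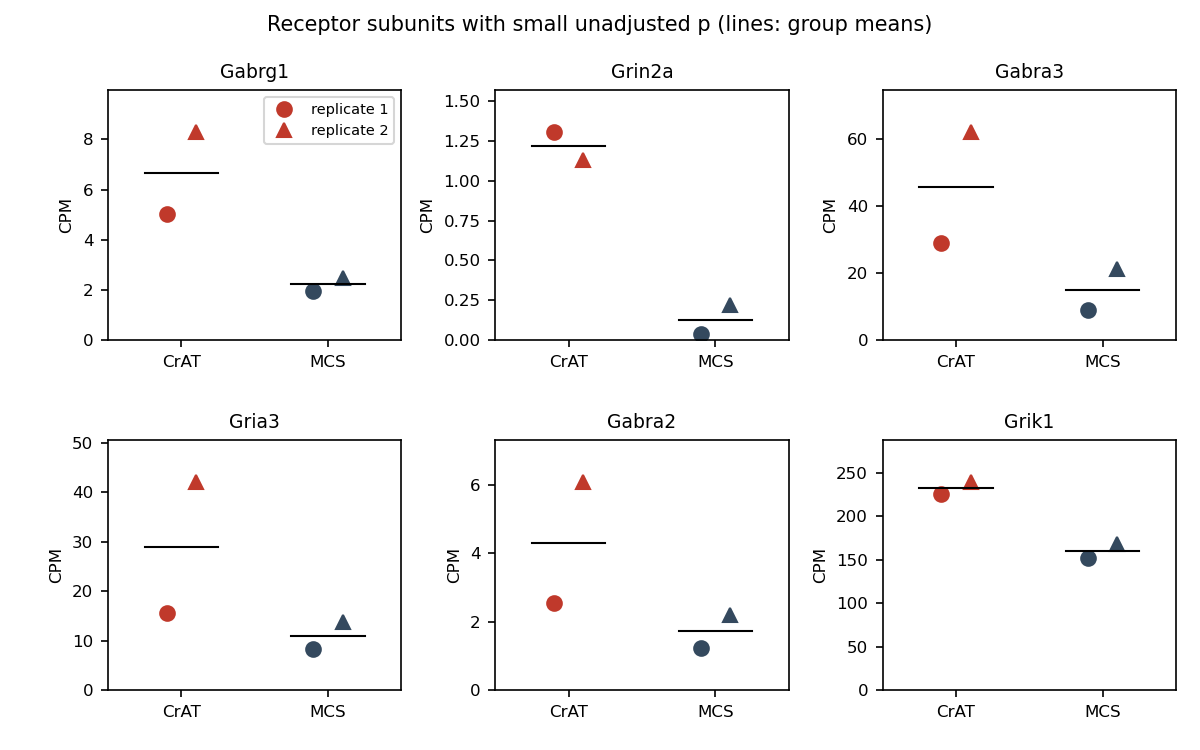
CPM in each library for 6 genes of small unadjusted p (Grin2a, Gabrg1, Gabra3, Gria3, Gabra2 and Grik1), with group means as lines and the replicate number by shape, each panel from 0. The groups do not overlap in any of the 6 panels, but the genes were picked by p from these same libraries, so this supports nothing. Over all genes tested, CrAT was the higher group without overlap in 15.4%. Grin2a passed the count filter only through CrAT. In Gabra3, Gria3 and Gabra2 replicate 2 of CrAT lies far above the other 3 libraries.

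GABA-A genes beyond these gave mixed values. Of the 13 tested, 8 had a log2 fold change above 0 and 5 below, with a median of 0.19. Without overlap, CrAT was the higher group in 6 of them and the lower in 1, beside 15.4% and 16.3% of all genes. Gabra2, an alpha subunit, was 2.53 and 6.09 CPM with CrAT against 1.24 and 2.2 CPM with MCS. The groups were apart there, with a log2 fold change of 1.32 (SE 0.63) that was 0.55 without CrAT replicate 2. Gabrd had -0.13 (SE 0.93), and its groups overlapped. The 1 lower gene, Gabre, rested on 5 and 0 counts against 13 and 10 and passed the filter only through MCS. The GABA-rho genes had log2 fold changes of 0.37 (SE 0.35) for Gabrr2, 0.25 (SE 0.30) for Gabrr1 and 0.06 for Gabrr3. Much of the first came from CrAT replicate 1, at 335 CPM against 188 to 229 CPM in the other 3 libraries, and without it the value was -0.04.

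The GABA-B subunits both had values below 0. Gabbr2 was 10.2 and 13.5 CPM with CrAT against 16.4 and 23.8 CPM with MCS, without overlap, a log2 fold change of -0.77 (SE 0.39, edgeR unadjusted p = 0.0959). Gabbr1 was 31.9 and 62.2 CPM with CrAT against 32.9 and 83.9 CPM with MCS, with -0.31 (SE 0.54). In Gabbr1 the difference between replicates was larger than that between groups. Among the glycine receptors 4 of 5 genes were above 0, with a median of 0.40. Glra3 was 7.13 and 19.3 CPM with CrAT against 1.61 and 7.3 CPM with MCS, a log2 fold change of 1.57 (SE 0.82), and the groups overlapped. Leaving out CrAT replicate 2 gave 0.68, and leaving out MCS replicate 2 gave 3.03. Glrb had 0.27 (SE 0.28), without overlap, and Glra2 had 0.76 (SE 0.59), which was 0.13 without MCS replicate 2.

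Glutamate receptors gave values in both directions. All 4 AMPA genes were above 0, with a median of 0.41, but Gria4, the most abundant per length, had 0.06 (SE 0.47). The kainate median was -0.43. Of the 5 kainate genes Grik1 and Grik2 lay above 0 and Grik3 and Grik4 below 0, each without overlap, and Grik5 below with overlap. Over all genes tested, CrAT was the higher group without overlap in 15.4% and the lower in 16.3%. Grik1 was 226 and 240 CPM with CrAT against 152 and 168 CPM with MCS, a log2 fold change of 0.54 (SE 0.27, edgeR unadjusted p = 0.0944). The spread between its replicates was small beside the difference, 233 ± 9.76 CPM against 160 ± 11.4 CPM (SD, n = 2 each). An SD of 2 libraries is itself poorly fixed, and Grik1 did not pass the test. Grik2 had 0.66 (SE 0.38) and Grik5 -0.68 (SE 0.52). NMDA genes other than Grin2a and Grin2c lay below 0. Grin1 was 37.7 and 83.5 CPM with CrAT against 37.7 and 95.3 CPM with MCS, with a like gap between replicates in both groups. Grin2b had a log2 fold change of -1.41 (SE 0.79), which rested on MCS replicate 2 with 141 counts against 25 to 34 in the other 3 libraries. Without that library it was 0.05.

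The metabotropic receptors tested, 6 in number, were all above 0, with a median of 0.49. Leaving out CrAT replicate 2 moved that median to 0.15, and leaving out MCS replicate 2 moved it to 1.35. Grm8, a presynaptic receptor, was 20.5 and 19.1 CPM with CrAT against 18.5 and 11.2 CPM with MCS, a log2 fold change of 0.41 (SE 0.39). Grm2 had 0.29 (SE 1.52), and its value lay below 0 without CrAT replicate 2, at -3.99, and without MCS replicate 1, at -0.57. The delta gene Grid1 had -0.19 (SE 0.56). With library totals in place of scaling factors, and with DESeq2's size factors, the median of each family kept its sign.

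Genes that anchor, traffic or modulate these receptors were read beside them, from a list of 60 genes that were all tested. None passed an adjusted p of 0.05 in edgeR or DESeq2, and 1 was higher (1.67%, against 1.34% of all genes) and 0 lower at an unadjusted p under 0.05 in edgeR, with 2 higher in DESeq2. The median log2 fold change was -0.12, with 26 genes above 0 and 34 below, which turned to 0.11 when CrAT replicate 1 was left out and to 0.14 when MCS replicate 2 was. Without overlap, CrAT was the higher group in 3 genes (5%, against 15.4% of all genes) and the lower in 10 (16.7%, against 16.3%). Cbln4, a secreted cerebellin that links synaptic partners, was 1.01 and 7.41 CPM with CrAT against 0.281 and 0.831 CPM with MCS, a log2 fold change of 2.91 (SE 1.07) that was 0.85 without CrAT replicate 2. Gabarapl2, a relative of the GABA-A receptor-associated protein, was 305 CPM in both CrAT libraries and 201 and 192 CPM in MCS, a log2 fold change of 0.64 (SE 0.27, edgeR unadjusted p = 0.0579). Shisa9, an auxiliary subunit of AMPA receptors, had -0.58 (SE 0.31), and Elfn1, a synaptic adhesion protein that binds metabotropic glutamate receptors, had -0.68 (SE 0.37), both without overlap.

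The auxiliary genes also differed by replicate number. Of the 60, 36 were higher in replicate 2 in both groups (60%, against 32.1% of all genes) and 9 were lower in both (15%, against 33.2%). Cacng3 and Cacng5, chosen after their values were seen, encode AMPA receptor auxiliary proteins and had means of 44.9 and 39 FPKM, above each AMPA subunit itself. Cacng3 was 82.8 and 192 CPM with CrAT against 42.5 and 181 CPM with MCS. Cacng5 was 93.8 and 276 CPM with CrAT against 34.5 and 194 CPM with MCS. Like Gria4, both were higher in replicate 2 of each group, and the groups overlapped.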

How the data were processed

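Group and replicate number were read from the sample titles. Per the labels' protocols, cDNA was made from total RNA by SMART-seq v4 Ultra Low Input chemistry, in which strand is not marked. STAR 2.7.2b and GRCm38.p6 (mm10) are named in the submitters' processing notes. Neither the counter settings nor the annotation release is named there or in the labels. Deposited were 2 tables by the authors, of estimated counts rounded to whole numbers and of FPKM. FPKM times exon length gave the unrounded values, and 41.2% to 42.6% of those below 2000 counts were not whole within 0.02. Of columns of other samples, 4 were not used.

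Genes with 10 or more counts in 2 or more libraries were fitted with edgeR 4.0.16 in R 4.3.3 (TMM, quasi-likelihood F test, robust, group as the only term, two-sided, Benjamini-Hochberg over 19791 genes, threshold 0.05). The SE is the log2 fold change divided by the square root of F. DESeq2 1.42.0 was an alternative. The design assumed whole counts, and the same test was used on the rounded estimated counts. The procedure was tested on simulated data. With 2 libraries a group an exact permutation test cannot go below 0.333 and is not printed. Members and lists were chosen with earlier results of these data known. Named genes were the 2 highest by FPKM in each family, the 12 with the smallest p, the 4 highest and 4 lowest replicate ratios and the 4 auxiliary genes with the smallest p; other members are given by level. Some genes of the set enter the counts and medians but are not reported here by name. Likeness of patterns and a test between replicate numbers, both planned, are not given: 4 libraries are too few for a correlation, and the labels give the numbers no meaning. Counting floors cover counting error only, since amplified reads lacking molecular identifiers need not be separate molecules.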

Additional observations from a re-analysis of the deposited data

How the results depend on the processing

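No receptor gene and no auxiliary gene passed the test under any alternative run, which were the replicate block, 2 other scalings, 2 other filters, protein-coding genes only, DESeq2 and each library left out. Of all genes, 2 passed with no filter and 54 in DESeq2. The replicate numbers are not stated to pair the samples. Across 19791 genes the deviations of the 2 libraries numbered 1 had a correlation of 0.384, and with the replicate block 11 receptor genes were higher and 1 lower at an unadjusted p under 0.05, against 5 and 0 without it, while the share of all genes under 0.05 went from 4.13% to 9.9%. With no filter 1 was lower. With single libraries left out, the number higher ranged from 1 to 6 and lower from 0 to 2, and the set's median from 0.16 to 0.37. Family medians then ranged from -0.52 to -0.17 for kainate, -0.82 to 0.22 for NMDA, 0.34 to 0.65 for GABA-A and 0.011 to 0.453 for GABA-rho. GABA-B, from -0.93 to 0.02, also turned. Medians kept their sign for metabotropic glutamate (0.15 to 1.35), AMPA (0.33 to 0.69) and glycine (0.13 to 0.84). So did the values of Gabbr2 (-1.015 to -0.48), Grik5 (-1.22 to -0.23), Grm8 (0.09 to 0.81), Glrb (0.15 to 0.39), Gabrr1 (0.011 to 0.453) and Elfn1 (-0.89 to -0.45), which moved by over 1.5 times.

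Signs turned with the replicate block for Gria4 (-0.01), Grm2 (-0.37), Grin3a (0.034) and Gabrd (0.27). They turned with single libraries left out for Gria4 (-0.64 to 0.54), Gabbr1 (-0.87 to 0.51), Gabrr2 (-0.038 to 0.68), Grin1 (-0.82 to 0.68), Grin3b (-1.39 to 0.22), Grid1 (-0.75 to 0.22), Grm2 (-3.99 to 2.699), Grin2b (-2.13 to 0.049), Grin3a (-0.59 to 0.72), Grin2c (-2.33 to 7.47) and Gabrd (-1.08 to 1.91). The cause was not tested. A lone library in a group was assumed to vary like the other group. With a common biological coefficient of variation of 0.406 and 2 libraries a group, small differences could not be resolved, and genes under 10 counts in most libraries could not be compared.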
